A study of Rattus norvegicus with 23 samples.

Results

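Glutathione transferases are the enzymes that join the tripeptide glutathione to reactive, electron-poor molecules, and the 9 genes described here are Gsta1, Gsta4, Gstm1, Gstm2, Gstp1, Gstt1, Gsto1, Mgst1 and Mgst3. They were taken by gene symbol from a lung RNA-seq table of 19249 genes, and come from the alpha, mu, pi, theta, omega and microsomal groups of the family. The choice was made with earlier results of these data known. Of the 9, 8 had a row and all 8 of these passed the filter on low values, and the level of Gstm2 was not analysed here. The RNA came from lung pieces of male rats that breathed filtered air (7 libraries), eucalyptus wood smoke set to a carbon monoxide target of 10 ppm (low smoke, 8 libraries) or the same smoke set to 20 ppm (high smoke, 7 libraries). Each rat was exposed on 4 days of week 1 and, after a break of 3 days, on 3 days of week 2, a schedule meant to resemble the shifts of wildland fire crews. The labels name no transgene or deletion, and strain and age are not given in the sources used here. Libraries of a group are from different rats.

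Cytosolic transferases work as dimers and are sorted by sequence into classes that include alpha, mu, pi, theta and omega. The microsomal transferases Mgst1 and Mgst3 are unrelated membrane proteins of the MAPEG family. Conjugates made by transferases leave the cell through export pumps and are trimmed to mercapturates, which appear in urine. In lung the enzymes meet epoxides, quinones and unsaturated aldehydes, which are constituents of wood smoke or are made from them by cytochromes P450. Several of the genes, Gsta1 among them, are known targets of the oxidant-responsive transcription factor NRF2, which binds antioxidant response elements.

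Values are normalized counts, the reads assigned to a gene divided by the size factor of its library. Depth was 8484131 to 12055512 read equivalents per library, so Gstt1, with 4 to 28 read equivalents per library, was the least precisely measured of the 8 and Mgst1, with 651 to 1400, among the most precise. High smoke replicates 1, 3 and 7 stood apart from the other 19 libraries on the first principal component, with scores of 36.5 to 51.5 against 0.3 to 8.8 in the other 4 high smoke libraries, and the calls below are given with and without them. Replicate 1 also had the lowest summed mitochondrial transcripts of the 22 libraries, at 79204. The labels disagree on which sample was dropped for quality, since the protocol names an air sample and the sample list marks a high smoke sample, and the group of each library is taken from the sample list. In the fit, high smoke and air differed in 2343 of 14414 genes, 1327 higher and 1016 lower, a split that became 894 higher and 1797 lower with every library scaled to the same total. The median log2 difference of all genes was then -0.078, against -0.002 as deposited.

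The 8 rows lie on 7 chromosomes of the rn6 build and all are protein coding. Gsta1 is at chr9:27368272-27452903 on the minus strand, a span that also holds Gsta3 on the plus strand. Whether reads were counted by strand is not given in the sources used here, so reads of these 2 genes cannot be told apart where they overlap. Gsta4 is at chr8:85497557-85518880 on the plus strand, Gstm1 at chr2:210803869-210809307 on the minus strand and Gstp1 at chr1:219291679-219294148 on the minus strand. Gstt1 is at chr20:13799102-13816527 on the plus strand, and Gsto1 at chr1:267607418-267617388 on the plus strand, where it overlaps Gsto2 on the same strand. Mgst1 is at chr4:172119331-172134608 on the plus strand and Mgst3 at chr13:85601499-85622315 on the minus strand. Read equivalents were whole in 22 of 22 libraries for Gstp1 and Mgst1, 21 for Gstt1 and Gsto1 and 18 for Mgst3. They were whole in 0 for Gsta1, 8 for Gstm1 and 9 for Gsta4, and the source of the fractions was not tested. Gsta1 and Gstm1 lie close to other genes of their class, as do Gstt1 and Gsto1, and how reads were shared among those rows is uncertain. The sequence likeness of these genes was not measured here. Rows of small noncoding RNAs overlap Gstm1 on the same strand, and Gsta4, Gstp1 and Mgst1 on the opposite strand. The RefSeq order on GRCr8 places Gstm2 between Gstm3 and Gstm1, and a Gstm2 read may have been assigned to a neighbour.

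The regions around the start sites of Gsta1 and Mgst3, the 2 genes that rose in high smoke, are shown with that of Gstp1, the other gene here whose window holds an antioxidant response element core. Each is 250 bases before and 50 after the annotated start, from RefSeq on GRCr8, 5′ to 3′ on the strand of the gene. Capitals mark matches on either strand to TGACNNNGC, the antioxidant response element core, or to GCGTG, the core bound by the aryl hydrocarbon receptor.
Gsta1 promoter, chr9:31216483-31216782, minus strand: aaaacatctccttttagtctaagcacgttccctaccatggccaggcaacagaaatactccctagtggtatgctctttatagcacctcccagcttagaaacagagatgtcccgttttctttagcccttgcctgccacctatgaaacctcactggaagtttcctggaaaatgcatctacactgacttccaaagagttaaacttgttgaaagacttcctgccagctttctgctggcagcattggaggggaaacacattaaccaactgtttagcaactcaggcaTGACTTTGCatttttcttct
Mgst3 promoter, chr13:82080246-82080545, minus strand: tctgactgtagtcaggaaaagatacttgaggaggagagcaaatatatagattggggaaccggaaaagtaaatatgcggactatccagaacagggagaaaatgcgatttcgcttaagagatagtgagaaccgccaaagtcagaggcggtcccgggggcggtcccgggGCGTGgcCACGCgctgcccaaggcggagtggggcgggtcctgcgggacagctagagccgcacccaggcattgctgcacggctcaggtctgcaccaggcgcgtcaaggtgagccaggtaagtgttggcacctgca
Gstp1 promoter, chr1:210769656-210769955, minus strand: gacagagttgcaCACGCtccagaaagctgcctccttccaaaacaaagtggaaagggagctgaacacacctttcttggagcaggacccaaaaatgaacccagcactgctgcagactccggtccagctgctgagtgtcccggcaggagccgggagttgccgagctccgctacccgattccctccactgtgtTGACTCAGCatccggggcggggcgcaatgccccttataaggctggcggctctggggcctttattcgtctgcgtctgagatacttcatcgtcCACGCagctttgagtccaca
In these windows Gsta1 held 1 antioxidant response element core, TGACTTTGC at position 30 counted from the start base as 0, and Gstp1 held TGACTCAGC at position -61, which also contains the letters of an AP-1 site, TGACTCA. Mgst3 held the receptor core at -84 and, on the other strand, at -77, Gstp1 held it at -238 and 30, and Gsta4 held it 3 times. Of the 8 members with a promoter entry, which include Gstm2 but not Gstt1, 2 had the first motif and 3 the second, against 12.1% and 29.7% of 33469 promoters of the same length. A match is a run of letters and not a shown binding site. Response elements further upstream than this window would not be seen.

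In high smoke against air, Gsta1 and Mgst3 rose and the other 6 members were not called. That is 2 of 8 called, both higher. Among all tested genes 16.3% were called, made up of 9.21% called higher and 7.05% called lower. A gene is called here at a limma adjusted p below 0.05 over all 14414 genes. Because whole lung was sequenced, a change in the number of cells of a type and a change in RNA per cell cannot be told apart in any of these values.

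**Figure D1:**
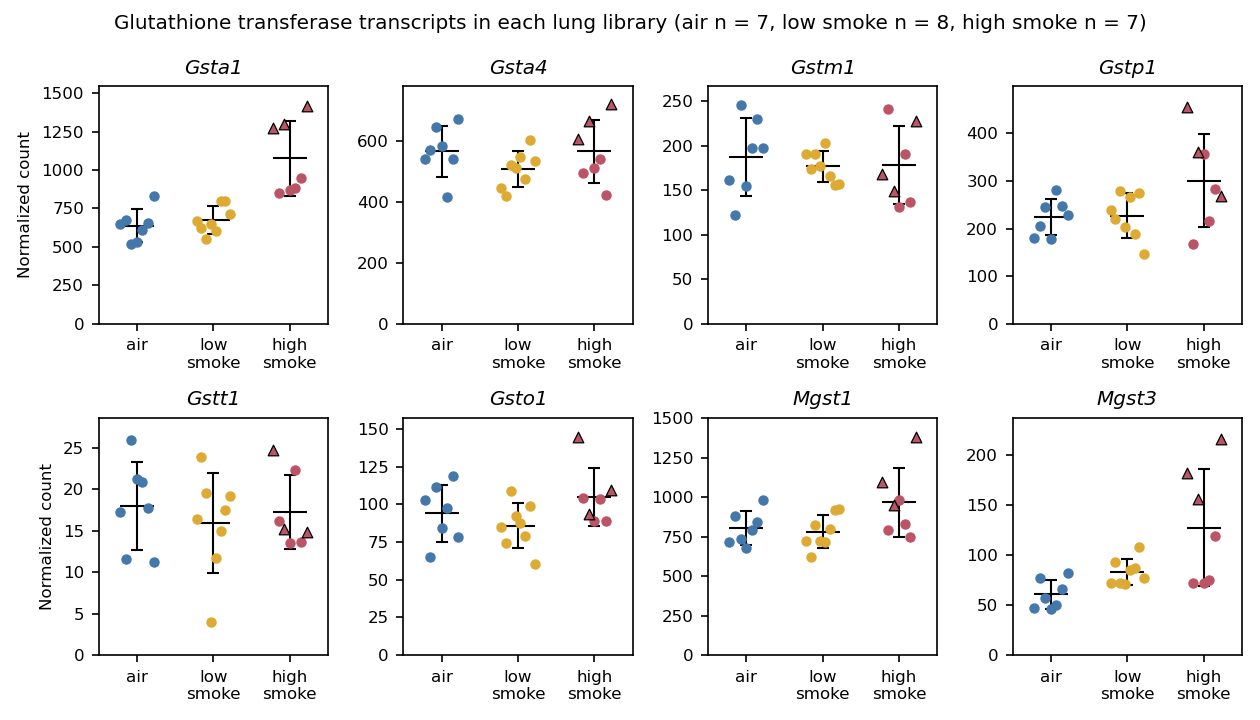
Normalized count of each of the 8 measured transferases in every lung library, with air (n = 7), low smoke (n = 8) and high smoke (n = 7) along each horizontal axis. Points are libraries, triangles are high smoke replicates 1, 3 and 7, and lines with caps are the mean and SD; every high smoke library lies above every air and low smoke library for Gsta1, while the groups overlap for the other 7.

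Gsta1 encodes an alpha class subunit that conjugates a wide range of electrophiles and also reduces lipid hydroperoxides. Its lowest, median and highest values were 849.7, 945.1 and 1415 in high smoke, against 515.9, 651 and 833.6 in air. All 7 high smoke libraries lay above every air library, a pattern shared by 1.3% of tested genes. The mean of 1076 ± 243 in high smoke was 1.67 times that in air, 638 ± 106 (SD, n = 7 each; fold on the log2(value + 1) scale), a log2 difference of 0.74 (SE 0.12, 95% interval 0.48 to 0.99, adjusted p = 0.000642). The exact two-sided permutation test gave 0.000583, the smallest p that 7 against 7 allows, and 0.0311 after adjustment over all genes. Replicates 1, 3 and 7 held 1274 to 1415 and the other 4 libraries 849.7 to 945.1, so the high smoke group split with a gap between. Without those 3 libraries the log2 difference was 0.49 and Gsta1 was still called (1.4-fold, adjusted p = 0.0441), as 0.861% of all genes then were. The row was also summed with Gsta3 and Gsta6, the other alpha class rows at this locus, and the sum differed by 0.68 (adjusted p = 0.000683). Most of that sum was Gsta1 itself, so it cannot tell whether reads of other alpha class genes entered the Gsta1 row. Gsta2 and Gsta5 had no row.

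Gsta4, the alpha class enzyme that prefers 4-hydroxynonenal and other aldehydes from lipid peroxidation, had 423.1, 538.9 and 720.3 as its lowest, median and highest values in high smoke, against 414.7, 569.3 and 672.4 in air. The groups covered the same range and their means were 565 ± 104 in high smoke and 566 ± 83.7 in air (SD, n = 7 each). Its log2 difference of -0.01 had a 95% interval of -0.24 to 0.22 (adjusted p = 0.977), so at these group sizes a change as large as that of Gsta1 lay outside the interval. Replicates 1, 3 and 7, at 606.7 to 720.3, were again above the other 4 high smoke libraries, at 423.1 to 538.9, and without them the difference was -0.19 (adjusted p = 0.471).

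Among the microsomal transferases, Mgst3 rose in high smoke and Mgst1 was not called. Mgst3 conjugates leukotriene A4 and reduces lipid hydroperoxides with glutathione. Its lowest, median and highest values were 71.68, 119.2 and 215.7 in high smoke, against 46.27, 57.18 and 81.95 in air, and 4 of 7 high smoke libraries lay above every air library. The means were 127 ± 58.5 in high smoke and 60.8 ± 14.6 in air (SD, n = 7 each), a log2 difference of 0.96 (SE 0.22, 95% interval 0.51 to 1.40, 1.94-fold, adjusted p = 0.00488). High smoke was also the most variable group for this gene, since replicates 1, 3 and 7 had 156.2 to 215.7 and the other 4 had 71.68 to 119.2. The call was lost without those 3 libraries (log2 difference 0.47, adjusted p = 0.234) and in the permutation test, where p was 0.00816 and 0.076 after adjustment. That test called 1 of the 8 members, Gsta1, and 6.05% of all genes.

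Mgst1, an enzyme of the endoplasmic reticulum and outer mitochondrial membrane that becomes more active when its thiol is modified, had 749.7, 947.8 and 1382 as its lowest, median and highest values in high smoke, against 681.1, 790.5 and 984.5 in air. The ranges overlapped, with 2 of 7 high smoke libraries above every air library. Means were 969 ± 218 in high smoke and 805 ± 107 in air (SD, n = 7 each), and the log2 difference was 0.25 (SE 0.12, 95% interval 0.01 to 0.49, adjusted p = 0.146). It was 0.06 without replicates 1, 3 and 7.

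Gstp1, the pi class enzyme, is the main cytosolic transferase of human airway epithelium. It had 167, 283 and 456.2 as its lowest, median and highest values in high smoke, against 178.6, 229 and 280.1 in air. High smoke libraries lay on both sides of the air range, 4 of 7 above it and the lowest below it. With means of 301 ± 97.7 in high smoke and 224 ± 37.8 in air (SD, n = 7 each), the log2 difference was 0.38 (SE 0.18, 95% interval 0.01 to 0.74, adjusted p = 0.149). High smoke replicate 2 held the lowest value, and without it Gstp1 was called (0.51, adjusted p = 0.0336), whereas without replicates 1, 3 and 7 the difference was 0.15.

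The mu, theta and omega class members showed no called difference. Gstm1, which conjugates epoxides of aromatic hydrocarbons, averaged 178 ± 43.7 in high smoke and 187 ± 43.8 in air (SD, n = 7 each). Its values spanned 131.3 to 241.4 in high smoke and 122.1 to 246 in air, with a log2 difference of -0.07 (95% interval -0.37 to 0.23, adjusted p = 0.775). Gstt1, a theta class enzyme that acts on small halogenated hydrocarbons, averaged 17.2 ± 4.46 in high smoke and 18 ± 5.32 in air (SD, n = 7 each), and the 13.56 to 24.76 of high smoke lay within the 11.23 to 25.93 of air. Its interval of -0.62 to 0.54 (log2) was the widest of the 8, and a change of the size seen for Mgst1 was not detectable at its depth. Gsto1, the omega class enzyme that reduces dehydroascorbate and removes glutathione from proteins, averaged 105 ± 19.3 in high smoke and 94.1 ± 19 in air (SD, n = 7 each). The groups overlapped, at 89.12 to 144.5 in high smoke and 65.15 to 118.7 in air, with a log2 difference of 0.16 (95% interval -0.13 to 0.45, adjusted p = 0.467). Without replicates 1, 3 and 7 the differences were -0.11 for Gstm1, -0.10 for Gstt1 and 0.06 for Gsto1.

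Low smoke against air gave 0 of 8 members called, beside 0% of all 14414 tested genes. At an unadjusted p below 0.05 limma counted 1 member, Mgst3, and 923 genes (6.4%), and the permutation test, which also called 0 genes after adjustment, counted 1 member and 1137 genes. Mgst3 had 70.6, 80.71 and 108.3 as its lowest, median and highest values in low smoke, against 46.27, 57.18 and 81.95 in air. All 8 low smoke libraries were above the air mean and 4 were above every air library. The means of 83.2 ± 13.1 in low smoke (n = 8) and of 60.8 ± 14.6 (n = 7) in air, both with SD, gave a log2 difference of 0.47 (SE 0.21, 95% interval 0.03 to 0.90, adjusted p = 0.76), with an unadjusted exact permutation p of 0.00777 that became 0.521 after adjustment. Gsta1 had 553 to 800.9 in low smoke and 515.9 to 833.6 in air, and its log2 difference of 0.09 had a 95% interval of -0.16 to 0.34 (adjusted p = 0.934). The other 6 differences ran between -0.24 for Gstt1 and 0.01 for Gstp1.

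Between the smoke groups, Gsta1 rose in high smoke and the other 7 members were not called. That is 1 of 8, beside 6.78% of all genes called and 3.8% called higher. The high smoke values of Gsta1, 849.7 to 1415, lay above all 8 low smoke values, 553 to 800.9, as did those of 0.382% of genes. The log2 difference was 0.65 (SE 0.12, 95% interval 0.40 to 0.90, 1.57-fold, adjusted p = 0.014), and the exact permutation test gave 0.026 after adjustment, with 3.19% of all genes called. Without replicates 1, 3 and 7 the difference was 0.40 (adjusted p = 0.636), in a fit that called 0 genes in all. This comparison shares its high smoke libraries with the one against air.

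For Mgst1 the high minus low smoke difference was 0.29 (log2, 95% interval 0.06 to 0.53, adjusted p = 0.107), with 4 of 7 high smoke libraries above every low smoke library, and of the settings run it was called only without high smoke replicate 6 (0.35, adjusted p = 0.0486). Gstp1 stood at 0.37 (adjusted p = 0.181) and Gsto1 at 0.29 (adjusted p = 0.19), where 7 of 7 high smoke libraries exceeded the low smoke mean. Mgst3 stood at 0.49 (adjusted p = 0.143). Without replicates 1, 3 and 7 the differences were 0.11 for Mgst1, 0.14 for Gstp1, 0.18 for Gsto1 and 0.003 for Mgst3. Those 3 libraries held the highest Mgst3 values, so leaving them out had to lower its difference. With 4 high smoke libraries left and no interval given, the small Mgst3 difference (adjusted p = 0.998 by limma) does not show the smoke groups to be equal. The Mgst3 distance from air was then 0.47 in low smoke and 0.47 in the other 4 high smoke libraries.

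Ordered by dose, the Mgst3 mean was 60.8 ± 14.6 with air, 83.2 ± 13.1 with low smoke and 127 ± 58.5 with high smoke (SD), with neither neighbouring step called. The Gsta1 mean was 638 ± 106 with air, 677 ± 90.5 with low smoke and 1076 ± 243 with high smoke, where the first step was within the spread and the second was called. For Gsta4, Gstm1, Gstt1, Gsto1 and Mgst1 the mean in low smoke was the lowest of the 3 groups, and no step was called. The coefficient of variation among high smoke libraries was 45.9% for Mgst3, 32.5% for Gstp1 and 22.6% for Gsta1, against 24%, 16.9% and 16.7% in air. It was 18.3% for Gsta4, 24.5% for Gstm1 and 22.6% for Mgst1 in high smoke, against 14.8%, 23.4% and 13.3% in air. For Gstt1 and Gsto1 it was lower in high smoke, at 25.9% and 18.4%, against 29.6% and 20.2% in air.

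**Figure D2:**
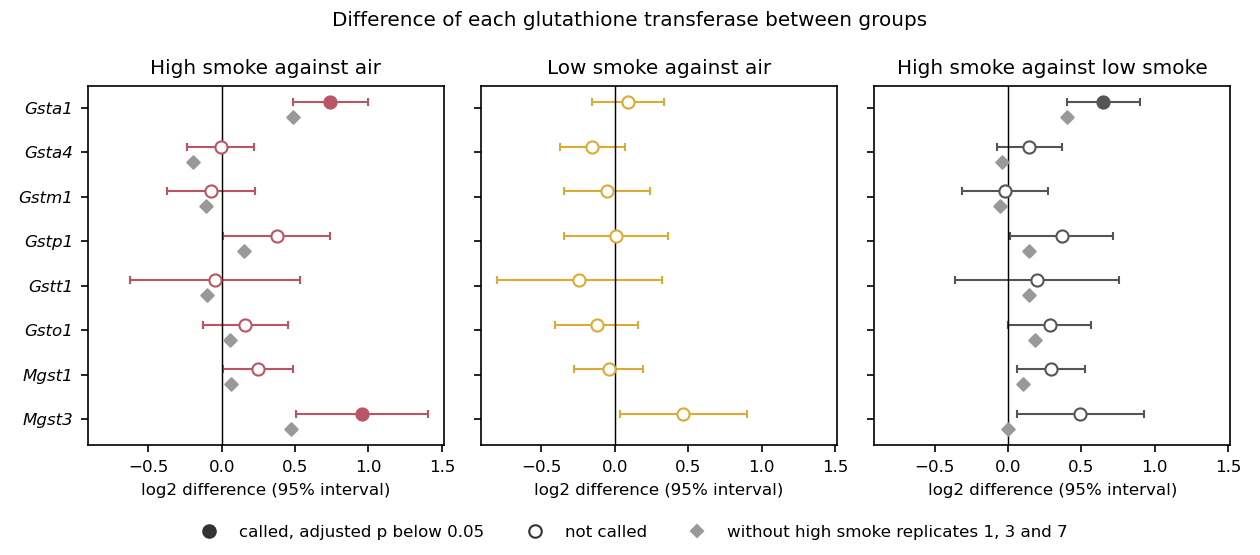
The log2 difference of each measured transferase (horizontal axis) for high smoke against air (left), low smoke against air (middle) and the smoke groups against each other (right), with 95% intervals from limma. Filled points were called at an adjusted p below 0.05 and grey diamonds are the difference without high smoke replicates 1, 3 and 7; Gsta1 (0.74) and Mgst3 (0.96) were called against air, Gsta1 (0.65) against low smoke, and no member in low smoke against air.

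The median log2 difference over the 8 members was 0.21 in high smoke against air, beside -0.002 over all tested genes, and 0.06 without replicates 1, 3 and 7. Of the 8, 5 were above 0 and 3 below. In low smoke against air the median was -0.05, beside 0.003 over all genes, with 3 above 0 and 5 below. Between high and low smoke it was 0.29, beside 0.001, with 7 above 0 and 1 below, and 0.12 without the 3 libraries.

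Across the 22 libraries the members did not move as 1 block. Gsta1, Mgst1 and Mgst3 went up and down together, with Pearson's r of 0.86 for Gsta1 and Mgst3 (Spearman's rho 0.67), 0.77 for Gsta1 and Mgst1 (0.72) and 0.67 for Mgst1 and Mgst3 (0.49), all on log2 values. Over the 19 libraries without high smoke replicates 1, 3 and 7 the same r were 0.59, 0.52 and 0.22. Gstm1 did not follow Gsta1, at r = -0.13 (-0.30 over 19 libraries), and came closest to Gsto1, at 0.48 (0.59 over 19). Gsta4 reached 0.63 with Mgst1 (0.41 over 19), while with Gsta1, its class partner, r was 0.38 over 22 libraries and turned to -0.14 over 19. These values are descriptions over libraries that share groups, size factors and the 3 libraries that stand apart, and are given without p.

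**Figure D3:**
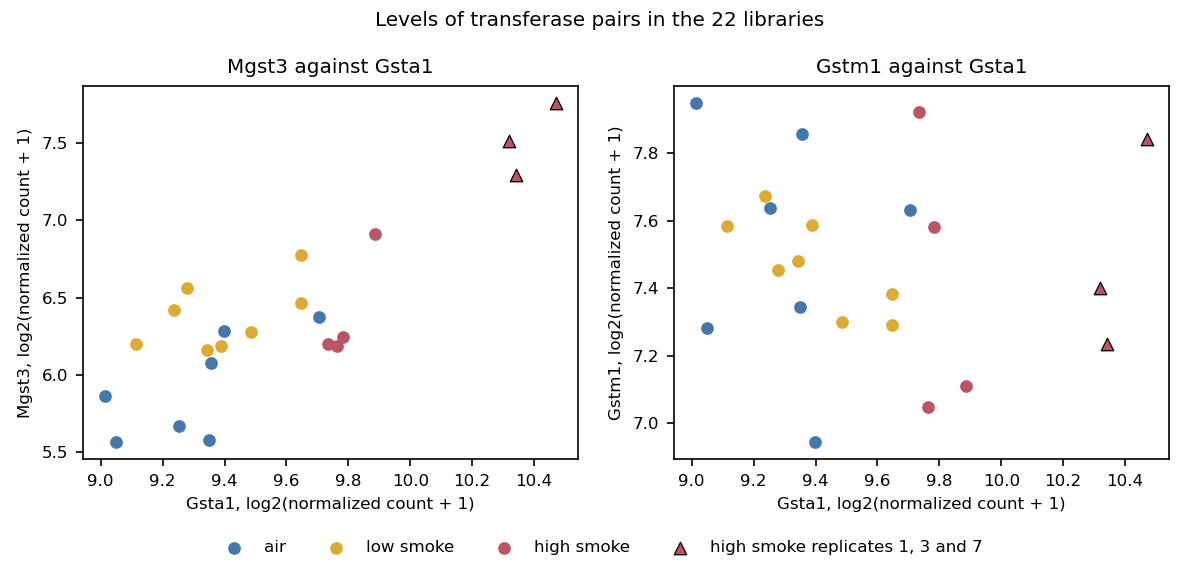
Level of Mgst3 (left) and of Gstm1 (right) against that of Gsta1, as log2(normalized count + 1), in the 22 libraries. Colours mark air, low smoke and high smoke and triangles high smoke replicates 1, 3 and 7, which are highest for both Gsta1 and Mgst3 (r = 0.86 over 22 libraries and 0.59 over 19), while Gstm1 shows no such relation (r = -0.13).

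The genes whose pattern was most like that of Gsta1, among 10398 with a mean of at least 50, included RT1-DMb (r = 0.93), a class II antigen-loading chain, and Rps9 (0.93), a ribosomal protein, which over 19 libraries stood at 0.81 and 0.79. For Mgst3 they were RT1-Db2 (0.90), a class II antigen chain, Scnn1g (0.89), the gamma subunit of the epithelial sodium channel, and Tmem176b (0.89), at 0.77, 0.72 and 0.72 over 19 libraries. Mgst1 was close to Mcee (0.86) and Arpc1a (0.83), and Gsta4 was most like Supv3l1 (0.83), Atp5mg (0.81) and Pacrgl (0.79). Gstm1 was most like Tspan1 (0.82), Iqcg (0.79) and Papss1 (0.78), and Gstp1 like Vamp3 (0.75), Rhod (0.75) and Qdpr (0.74). The closest to Gstt1 were Bysl (0.73), Abtb1 (0.70) and Slc27a4 (0.70), and to Gsto1 Aimp2 (0.74), Mettl1 (0.73) and Ppox (0.72). No gene named here was close to more than 1 member by this rule.

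Of 19 other glutathione transferases listed, 14 had a row and 12 were tested. High smoke against air gave 2 that rose and 0 that fell, with a median of 0.24. Beside this list and those below, 9.21% of all tested genes were called higher in that comparison and 7.05% lower. Gstk1, the kappa class enzyme of mitochondria and peroxisomes, had 43.89, 61.81 and 77.04 as its lowest, median and highest values in high smoke, against 21.93, 28.83 and 57.25 in air (log2 difference 0.86, 1.82-fold, adjusted p = 0.00488). It also rose against low smoke (0.84, adjusted p = 0.0174, and 0.66, adjusted p = 0.64, without replicates 1, 3 and 7). Gstm7, a mu class enzyme whose row spans that of Gstm6, had 573.6, 692.7 and 920.6 in high smoke, against 382.8, 489.4 and 727 in air (0.49, adjusted p = 0.0114). Neither was called against air without replicates 1, 3 and 7, where the differences were 0.68 and 0.31.

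The alpha class rows beside Gsta1 were not called, with 63.3 ± 25.1 in high smoke and 53.4 ± 24.9 in air for Gsta3 and 60.8 ± 10.1 in high smoke and 51.9 ± 15.9 in air for Gsta6 (SD, n = 7 each). Gstm4, next to Gstm1, stood at -0.004 and Gstm5 at -0.27, and all mu class rows summed with Gstm1 at 0.21 (adjusted p = 0.14), against -0.07 for Gstm1 alone. Gstt3, the theta class row next to Gstt1, averaged 971 ± 152 in high smoke and 831 ± 197 in air (0.24, adjusted p = 0.204), Gstt2 stood at -0.16, and the theta rows summed at 0.19. Gsto2 stood at 0.23, Gstz1, which isomerizes maleylacetoacetate, at 0.12, Gstcd at 0.03 and Hpgds, which makes prostaglandin D2, at 0.36. Gstm6 and Gstt4 fell below the mean of 10 needed for testing, with 0 to 3.195 and 0 to 8.828 over the 22 libraries. In low smoke against air none of the 12 was called by limma.

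The steps around conjugation moved unevenly. Of 9 genes of glutathione synthesis and recycling tested, 0 rose and 1 fell in high smoke against air: Me1, malic enzyme, a source of NADPH, had a mean of 813.7 in high smoke and 1095 in air (log2 difference -0.44, adjusted p = 0.00965). Without replicates 1, 3 and 7 it stood at -0.35 and was not called (adjusted p = 0.197). The ligase subunits Gclc and Gclm stood at -0.04 and 0.12. Of 15 genes for conjugate export and for the making or breakdown of mercapturates and their precursors, 5 rose and 1 fell. Lap3, a leucine aminopeptidase that splits cysteinylglycine, had 585, 626.4 and 864.3 as its lowest, median and highest values in high smoke, against 386.8, 422.1 and 500.1 in air, with no overlap (0.64, adjusted p = 0.000369). Dpep1, a dipeptidase for the same step, stood at 0.40 (adjusted p = 0.00381) and Kyat1, a cysteine conjugate lyase, at 0.58 (adjusted p = 0.00753). Lap3 was the 1 gene of that list still called without replicates 1, 3 and 7. Of 4 genes of glutathione breakdown 1 rose, the cyclotransferase Chac2 (0.54, adjusted p = 0.0101), which stood at 0.27 and was not called without those 3 libraries (adjusted p = 0.335).

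Of 16 glutathione-dependent peroxidases, glyoxalases and glutaredoxins, 5 rose and 0 fell, with a median of 0.23. Esd, which hydrolyses S-formylglutathione in formaldehyde removal, had 179.2, 229.3 and 313 as its lowest, median and highest values in high smoke, against 134.6, 156 and 161.9 in air, and again no library overlapped (0.63, adjusted p = 0.00097). Glrx, glutaredoxin, had means of 808.3 in high smoke and 431.3 in air (0.81, adjusted p = 0.00317), and Gpx8 168.7 in high smoke and 112.3 in air (0.55, adjusted p = 0.00987). Gpx4 led the list at 0.86. Gpx4 and Esd were the 2 genes still called without the 3 libraries, at 0.70 and 0.40.

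Of 14 genes for NRF2, its regulators and its other targets, 2 rose and 1 fell, with a median of 0.05. Ephx1, the microsomal epoxide hydrolase that shares epoxide substrates with the transferases, had means of 467.4 in high smoke and 351.9 in air (0.41, adjusted p = 0.00546). Osgin1 had 79.36 in high smoke and 44.87 in air (0.82, adjusted p = 0.0113), and Sqstm1, which encodes the KEAP1-binding adaptor p62, had 1534 in high smoke and 1950 in air (-0.36, adjusted p = 0.0296). Nfe2l2, the gene of NRF2, stood at -0.15 and Nqo1 at 0.27, neither called. Of 19 other drug-metabolizing enzymes of lung 4 rose and 0 fell: Cyp2e1 at 0.94, Ces1d at 0.33, the flavin monooxygenase Fmo1 at 0.35 (adjusted p = 0.0217) and the aldehyde reductase Akr1a1 at 0.28 (adjusted p = 0.0426). None of the 3 called genes of the NRF2 list, nor of these 4, was called without replicates 1, 3 and 7. The 2 tested MAPEG relatives of Mgst3, Mgst2 and Alox5ap, stood at -0.02 and 0.01. Neither was called, while Ptges and Ltc4s fell below the filter. In low smoke against air 0 genes of these 7 lists were called, as for all genes.

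**Figure D4:**
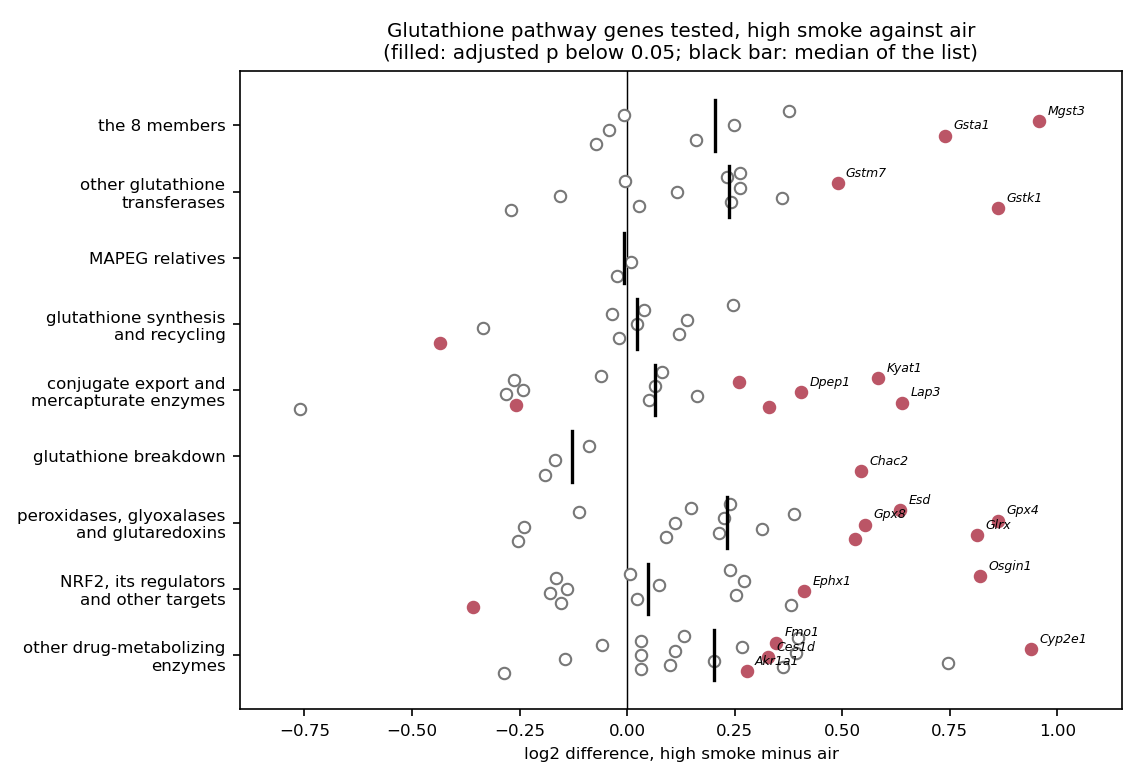
The log2 difference in high smoke against air (horizontal axis) of every tested gene in the 8 measured members and 8 further gene lists. Filled points were called at an adjusted p below 0.05, names mark up to 4 genes of each list that rose, and black bars are the list medians, which lie at 0.21 for the members and 0.24 for the other transferases.

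Some markers of several lung cell types were called in high smoke against air, where 9.21% of all tested genes were higher and 7.05% lower. In lists this short, 1 called gene does not show that a cell type changed. The part of these markers in the transferase results was not tested. Without replicates 1, 3 and 7, 1 alveolar type 2 marker, Napsa, was still called, and 0 genes of the other marker lists or of the mitochondrial transcripts were. The sums below are of normalized counts, so the most abundant markers of a list dominate them. Among alveolar type 2 markers 2 of 7 rose, and their summed level was 215386 to 284061 in high smoke and 176180 to 224875 in air. The Sftpc mean was 106600 in high smoke and 65040 in air. Over the 7 markers the median log2 difference was 0.05, with 6 above 0 and 1 below. Among alveolar type 1 markers 2 of 5 rose, with sums of 30939 to 39347 in high smoke and 23017 to 31154 in air. The Ager mean was 16820 in high smoke and 10560 in air. The median over these 5 was 0.36, with 4 above 0 and 1 below. Of smooth muscle markers 3 of 5 rose, at 15492 to 25224 in high smoke and 11997 to 20783 in air. Of red cell markers 2 of 5 rose, at 7091 to 14582 in high smoke and 4822 to 7148 in air. The Hbb mean was 6913 in high smoke and 3561 in air. The median over the 5 red cell markers was 0.30, with 4 above 0 and 1 below. Of fibroblast markers 1 of 5 rose (10810 to 15588 in high smoke, 8904 to 13328 in air) and of B cell markers 1 of 4 (499 to 1399 in high smoke, 221 to 800 in air).

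Club cell markers, from the airway cells that are rich in drug-metabolizing enzymes, had 0 of 5 called and sums of 6623 to 11029 in high smoke and 6715 to 11688 in air. Cyp2f4 is counted both there and among the drug-metabolizing enzymes. Of ciliated cell markers 1 of 7 fell (1410 to 2253 in high smoke, 1533 to 2455 in air) and of alveolar macrophage markers 1 of 5 (2943 to 4248 in high smoke, 2958 to 3911 in air). Of 4 endothelial markers 1 rose and 1 fell (24798 to 31154 in high smoke, 27162 to 32617 in air). Cardiac muscle (11 to 754 in high smoke, 12 to 783 in air) and neutrophil markers (208 to 429 in high smoke, 201 to 500 in air) had 0 called. Of mitochondrial transcripts 5 of 13 fell (median log2 difference -0.31, and -0.18 with 0 called without those 3 libraries), with sums of 79204 to 156082 in high smoke and 113946 to 153806 in air. Markers at 0 in at least 1 library were Bpifa1 of club cells and Myl4, Myl7, Myh6 and Mybpc3 of cardiac muscle. The listed markers Foxj1 (ciliated), Marco (alveolar macrophage), Pecam1 (endothelial), Col1a2 (fibroblast), Nppa (cardiac muscle) and Hbb-b1 (red cell) had no row. Every other listed marker was above 0 in every library.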

How the data were processed

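Lung RNA of male rats was sequenced in 22 libraries (7 air, 8 low smoke, 7 high smoke). Another high smoke sample, marked in the labels as dropped for quality, had no column. Per the submitters' processing notes, STAR 2.7.3a, Partek, DESeq2 and the rn6 build were used; strandedness and the handling of reads with several matches are not given in the sources used here. The authors deposited 1 table of signal values, read as gene counts that were each divided by the size factor of their library. Of values under 200 reads, 80.7% to 82.8% per library lay within 0.02 of a whole number of reads, so count models were not used.

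Genes with a mean of at least 10 (14414) were tested on log2(value + 1), which understates changes of low genes, with limma 3.58.1 in R 4.3.3 (trend on, robust off, the 3 groups in 1 fit), two-sided, with Benjamini-Hochberg adjustment over all genes within each of 3 contrasts. Alternatives were other pseudocounts, filters and scalings, array weights, robust shrinkage, only the 2 groups compared, an exact permutation test of the mean difference, and leaving out each library in turn. Leaving out high smoke replicates 1, 3 and 7 and summing neighbouring family rows were chosen after seeing the data. The limma fit was tested on simulated data for the comparison of high smoke against air. The depth was 8484131 to 12055512 read equivalents. Files gave no transcript length, so levels were not compared between genes.

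The members and the gene lists were chosen with earlier results of these data known. Named were all members, all other transferases measured, up to 4 called genes with the smallest p per pathway list, and the 3 genes most like each member (Pearson's r, mean of at least 50). A few genes that this rule selects are left out. Gclc, Gclm, Nfe2l2, Nqo1, Mgst2, Alox5ap and Napsa were named outside this rule, after their values were seen. Sequences came from RefSeq (GRCr8).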

Additional observations from a re-analysis of the deposited data

Results flagged for a closer look

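Gsto1 in high smoke replicate 1 had 144.5 normalized counts, and the nearest of the other 6 high smoke libraries had 109.8. The gap was 0.626 of the range of the group, past the critical value of 0.568 for 7 libraries. This was the only one of 24 pairs of a member and a group to pass, and chance gives about 1 in 20. Replicate 1 is also 1 of the 3 libraries that stand apart and the one with the lowest summed mitochondrial transcripts (79204).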

How the results depend on the processing

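Of 849 changes of a member under 36 other settings, 844 kept their side of the threshold; called members kept their direction, and for 10 of the 24 changes, all uncalled, the sign changed in at least 1 setting. The count of members called in high smoke against air was 2, and 1 both without high smoke replicates 1, 3 and 7 and in the exact permutation test; it stayed at 2 in every other planned setting except without high smoke replicate 2, where it was 3 with Gstp1. In high smoke against low smoke it was 1, 0 without those 3 libraries, and 1 to 2 over the fits that left out 1 library. In low smoke against air it was 0 throughout. Against air, Gsta1 stayed called in all 22 fits that left out 1 library (0.67 to 0.81, adjusted p up to 0.00238), as did Mgst3 (0.81 to 1.07, adjusted p up to 0.0154). Counts over all genes moved more. In high smoke against air 1453, 1461 and 1550 genes were called without high smoke replicate 1, 3 or 7 alone, 1363 with only the 2 groups compared, and 124 without all 3, against 2343. In high smoke against low smoke 35, 51 and 29 were called without high smoke replicate 1, 3 or 7, 1651 and 1575 without high smoke replicate 4 or 6, and 316, 296, 550 and 399 without low smoke replicate 1, 2, 3 or 4, against 977, while scaling to the same total gave 414 higher and 633 lower, against 548 and 429. Low smoke against air had 2 genes called without air replicate 5. No paired analysis was possible because numbers were given to libraries in accession order and pair none of them. Depth limits Gstt1 most.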
